A study of Mus musculus with 8 samples.

Results

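Epcam hi is 1 of 4 mouse mammary carcinoma cell lines in this series, and its 2 RNA libraries were set against the 6 libraries of the lines pB2, pB3 and 687g. All 4 lines are on the C57BL/6 background and come from mammary tumours of mice that carry MMTV-PyMT, a transgene in which the promoter of the mouse mammary tumour virus drives the polyoma virus middle T oncogene in mammary epithelium. Epcam hi and 687g were derived from the MMTV-PyMT-Snail-IRES-YFP reporter model, and pB2 and pB3 from MMTV-PyMT mice for which the labels name no reporter, so every line carries the oncogene and 687g shares the reporter model with Epcam hi. No treatment is named, and the cells grew as adherent monolayers in DMEM/F12 with 5% adult bovine serum. The labels do not say whether a line is a clone, how Epcam hi was selected or whether the 2 replicates of a line were separate cultures, so the p-values rest on differences between libraries that may be technical. With 1 line of each name, what belongs to a line and what belongs to an epithelial state cannot be told apart.

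Genes were called on only in Epcam hi where they reached at least 10 CPM (read counts scaled by library size with TMM factors) in both of its libraries and stayed under 1 CPM in all 6 others, and off only in Epcam hi for the reverse. Of 53379 annotated genes, 8 were on only there (0.015%) and 17 were off only there (0.0318%). Without Epcam hi replicate 2 the first count was 14, where leaving out a library can only add members. The same rule gave 137 on and 92 off for pB2, 16 and 2 for pB3, and 27 and 21 for 687g. The rule uses the CPM values themselves, so the members' values are given as a description without a test.

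As background, carcinoma cells can lose epithelial junctions and gain motile, fibroblast-like features in the epithelial-mesenchymal transition (EMT), a program driven by transcription factors of the Snail, Twist and Zeb families. EPCAM is a cell surface adhesion protein of epithelia, and E-cadherin (Cdh1) holds epithelial cells together. Epithelial cells rest on a basement membrane, to which laminin-332 and the integrin that holds the Itgb4 chain anchor them, and bone morphogenetic proteins (BMPs) signal through Smad proteins to switch on the Id genes.

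Marker genes of epithelium were at high levels in the line labelled Epcam hi, with exceptions among the keratins. Epcam itself stood at 1408 and 1535 CPM in the Epcam hi libraries, 578 and 552 in pB2, 278 and 264 in pB3 and 3.85 and 3.69 in 687g. Cdh1 stood at 457 and 519 CPM against 0.738 to 167 CPM in the other 6 libraries. Both were higher in Epcam hi than in each other line, with log2 fold changes of 1.38, 2.44 and 8.60 (SE 0.17, 0.17 and 0.24) against pB2, pB3 and 687g for Epcam and of 1.65, 3.25 and 8.49 (SE 0.22, 0.24 and 0.33) for Cdh1 (edgeR quasi-likelihood test, the largest of the 3 adjusted p 1.1e-05 and 3.1e-05). Krt8 and Krt18, the keratins of simple and luminal epithelium, stood at 407 and 535 and at 3004 and 2641 CPM. Krt8 was near its level in pB3, at 473 and 486 CPM, and read 104 and 94.1 in pB2 and 250 and 201 in 687g. Krt18 read 229 and 195 CPM in pB2, 1878 and 2067 in pB3 and 1159 and 1068 in 687g. Krt14 and Krt5, keratins of basal cells, were at 2.74 and 2.35 and at 0.703 and 0.601 CPM, and Krt19, another luminal keratin, at 2.67 and 2.51. In the other libraries Krt14 ranged from 0.403 to 223 CPM, Krt5 from 0.0647 to 0.296 and Krt19 from 0.671 to 86.5. The mesenchymal filament gene Vim was at 21.3 and 32.4 CPM, above 13.8 and 14.1 in pB2 (log2 fold change 0.95 ± 0.24, here and below ± SE, adjusted p 0.0049) and below 2307 and 2429 in pB3 and 3384 and 2332 in 687g. In bulk RNA, as here, fewer cells that express a gene and less RNA per cell cannot be told apart.

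Total counts were 13701156 and 18515857 in the Epcam hi libraries and 12442730 to 19149916 over all 8, so that 3 counts in 1 library equal 0.157 to 0.241 CPM. Of genes with a mean of at least 5 CPM, 3.35% were over 2-fold apart between the 2 Epcam hi libraries, where 687g had 1.59%, pB3 0.0904% and pB2 0.0501%. At 1.5-fold the order of the first pair turned, with 13.3% in Epcam hi and 16.98% in 687g, and the median absolute log2 ratio was 0.25 in Epcam hi and 0.30 in 687g. Of the leukocyte markers, Ptprc, Tyrobp, Cd3e and Lyz2 were at 0 to 0.383 CPM in Epcam hi. The summed level of the 14 leukocyte markers was 36.5 and 14.5 CPM against 0.961 to 3.74, nearly all of it from Cd68, a lysosomal protein of macrophages that other cells also make, at 35.5 and 13.4 CPM against 0.518 to 1.81. The 13 fibroblast markers summed to 469 and 349 CPM in Epcam hi against 75.4 to 1146, nearly all from Gsn in Epcam hi, an actin-severing protein of many cell types. Of the 6 tested, Pdgfra, Pdgfrb and Fbln1 were lower than in each line and none higher, and Col1a2, Col3a1 and Dcn were at 0 to 0.0703 CPM. The 11 endothelial markers summed to 10.96 and 9.57 CPM in Epcam hi against 2.89 to 13.98, mostly from Egfl7 in Epcam hi, with Kdr, Tie1, Emcn and Cldn5 at 0, and the 9 adipocyte markers to 0.281 and 0.875 CPM in Epcam hi against 0.259 to 28.9, with Adipoq and Plin1 at 0. The 11 neural and glial markers summed to 32.2 and 28.5 CPM in Epcam hi against 3.74 to 24.8, with Sox10 at 0 and 0.0547 CPM. Mbp was the neural gene called higher than in each line, at 30.6 and 26.1 CPM against 0.268 to 10.8. The part of other cells in the results was not tested beyond these levels.

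The 8 genes on only in Epcam hi were those of a cytokine, a transmembrane collagen, a membrane transporter, a phosphatase subunit, a microtubule linker, a tripartite motif protein and 2 genes to which no function is given here. Il1a (chr2:129299610-129309972 on GRCm38) encodes interleukin 1 alpha, a cytokine that epithelial cells hold ready and release on damage. It stood at 57.1 and 32.03 CPM in the Epcam hi libraries, 0.0740 and 0 in pB2, 0.403 and 0.0647 in pB3 and 0.112 and 0.134 in 687g. Against pB3, the nearest of the other lines, its summed counts per total were 186-fold (95% counting interval 90.3 to 465) higher. Clip4 (chr17:71768473-71864273), a linker protein with CAP-Gly domains that bind microtubules, reached 60.1 and 58.5 CPM in the Epcam hi libraries, 0.0740 and 0.530 in pB2, 0.201 and 0.712 in pB3 and 0.223 and 0.604 in 687g. Ppp2r2c (chr5:36868513-36955078) encodes a regulatory B subunit of protein phosphatase 2A, and read 47.5 and 61.6 CPM in the Epcam hi libraries, 0 and 0.0530 in pB2, 0.0671 and 0.582 in pB3 and 0.0558 and 0.0671 in 687g. Clip4 and Ppp2r2c were thus the steadier of the abundant members, with 1.03-fold and 1.30-fold between the 2 Epcam hi libraries.

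Col13a1 (chr10:61838236-61979108) encodes collagen XIII, a collagen that spans the plasma membrane and sits at adhesion sites. It read 39.1 and 21.2 CPM in the Epcam hi libraries, 0.0740 and 0 in pB2, 0.134 and 0.323 in pB3 and 0.112 and 0 in 687g, a 126-fold (95% counting interval 60.8 to 314) excess over pB3 in summed counts. Nipal4 (chr11:46148155-46166508) encodes ichthyin, a membrane protein of the magnesium transporter family that is needed for the lipid barrier of skin. It read 26.4 and 17.8 CPM in the Epcam hi libraries, 0 and 0.0530 in pB2, 0.806 and 0.712 in pB3 and 0.0558 and 0.0671 in 687g, which makes pB3 the only line with more than a trace. Trim15 (chr17:36860691-36867210), a tripartite motif protein found at focal adhesions, read 21.7 and 11.3 CPM in Epcam hi and 0 in 5 of the other libraries, with 0.201 in 687g replicate 2. The long noncoding RNA Gm10385 (chr15:36690103-36694949) stood at 16.7 and 14.3 CPM against 0 to 0.134, and 2610528J11Rik (chr4:118526999-118530228) at 14.5 and 10.5 CPM against 0 to 0.671. Of the 8 genes, 7 were higher in Epcam hi replicate 1, Ppp2r2c being the exception, with a median log2 ratio of replicate 2 over replicate 1 of -0.51, and none was over 2-fold apart. Ppp2r2c overlaps the gene model Gm42506 on the same strand, so reads of the pair cannot be fully told apart.

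**Figure D1:**
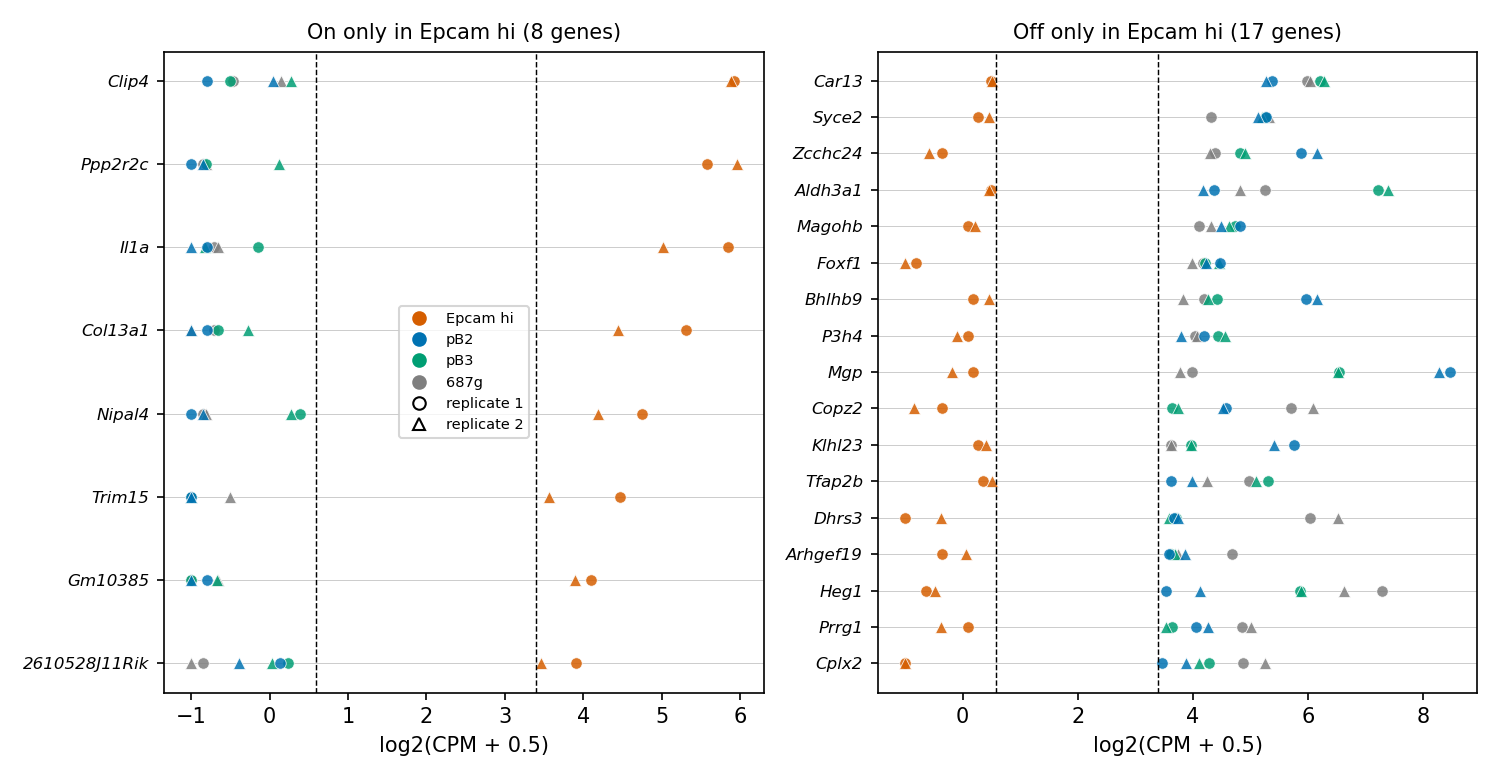
Expression of the 25 member genes in all 8 libraries, as log2(CPM + 0.5) on the horizontal axis; colours are the 4 lines, circles replicate 1 and triangles replicate 2, and the dashed lines mark 1 and 10 CPM. The gap between Epcam hi and the other libraries is fixed by the rule, while the width of each cloud is not: Mgp spans 13.3 to 355 CPM over the other 6 libraries and Foxf1 only 15.4 to 21.7.

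Other genes of the interleukin 1 system were low or near the levels of another line; they were chosen after their values were seen. Il1b, the sister cytokine, stood at 0.703 and 0.383 CPM in Epcam hi, and Il1rn, which encodes the receptor antagonist, was at 0 in both of its libraries. Il1r1, the signalling receptor, was at 3.02 and 2.79 CPM in Epcam hi, near 4.57 and 4.01 in pB3 and under 20.4 and 19.3 in pB2 and 51.5 and 51.3 in 687g. Il1rap, the receptor's partner chain, stood at 18.8 and 21.7 CPM, within the range of 7.52 to 31.4 in the other lines.

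Among the 17 genes off only in Epcam hi were 2 transcription factors. Foxf1 (chr8:121084386-121088144), a forkhead factor known from the mesenchyme around the gut and lung, gave a single count in the 2 Epcam hi libraries together. It read 0.0703 and 0 CPM in the Epcam hi libraries, 21.7 and 18.2 in pB2, 18.1 and 21.3 in pB3 and 17.7 and 15.4 in 687g, a narrow range across the other 3 lines. Its summed counts per total were 542-fold (95% counting interval 96.8 to 21439) lower than in 687g, the lowest of them. Foxf1 overlaps the gene model Gm20388 on the same strand, so reads of the pair cannot be fully told apart. Tfap2b (chr1:19208914-19238576) encodes AP-2 beta, a factor known from neural crest and kidney, and read 0.773 and 0.929 CPM in the Epcam hi libraries, 11.8 and 15.3 in pB2, 39.1 and 33.6 in pB3 and 30.9 and 18.6 in 687g. Its paralogue Tfap2a was at 23.3 and 35.5 CPM in Epcam hi, against 27.4 to 41.4 in the other libraries, and Tfap2c was at 0.562 and 0.492 CPM there and above 1 CPM only in pB2, at 180.1 and 166; both paralogues were looked up after the member was known. Bhlhb9 (chrX:135797594-135891081), of the GPRASP family despite its name, stood at 0.632 and 0.875 CPM against 13.7 to 70.98 and overlaps Gprasp1 and Gprasp2 on the same strand.

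A group of off-only genes acts in the matrix, at the membrane or in secretion. Mgp (chr6:136872435-136875823) encodes matrix Gla protein, a secreted inhibitor of calcification that also binds BMPs, and read 0.632 and 0.383 CPM in the Epcam hi libraries, 355 and 311 in pB2, 92.7 and 91.1 in pB3 and 15.4 and 13.3 in 687g. It had the widest range of all members across the other lines. Heg1 (chr16:33684370-33771576), a transmembrane receptor of endothelial and mesothelial junctions, read 0.141 and 0.219 CPM in the Epcam hi libraries, 11.1 and 16.9 in pB2, 57.7 and 58.6 in pB3 and 157 and 97.8 in 687g. P3h4 (chr11:100408456-100414836), a partner of the enzymes that modify collagen lysines and prolines, stood at 0.562 and 0.437 CPM against 13.5 to 23.1. Prrg1 (chrX:78449613-78583896), a membrane protein with a Gla domain, stood at 0.562 and 0.273 CPM against 11.1 to 31.9. Cplx2 (chr13:54371349-54383917), a complexin that clamps the SNARE complexes of vesicle fusion, had no count in either Epcam hi library and 10.6 to 37.8 CPM elsewhere. With a floor of 3 counts over both libraries in place of no count, it was 138-fold lower than in pB2. The lower end of the 95% counting interval was 112-fold. Copz2 (chr11:96849870-96861203), a coatomer subunit of Golgi vesicles, read 0.281 and 0.0547 CPM in the Epcam hi libraries, 23.3 and 22.6 in pB2, 12.02 and 12.9 in pB3 and 51.7 and 67.6 in 687g, while its paralogue Copz1 was at 50.6 and 46.8 CPM against 49.9 to 76.02.

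Several off-only genes encode enzymes. Dhrs3 (chr4:144892827-144928209) reduces retinal back to retinol and is itself induced by retinoic acid. It read 0 and 0.273 CPM in the Epcam hi libraries, 12.3 and 12.8 in pB2, 12.6 and 11.6 in pB3 and 65.1 and 91.9 in 687g, the highest values being those of 687g. Aldh3a1 (chr11:61207537-61218421), an aldehyde dehydrogenase of the cornea and of xenobiotic metabolism, read 0.913 and 0.875 CPM in the Epcam hi libraries, 20.04 and 17.5 in pB2, 148 and 168 in pB3 and 37.5 and 27.6 in 687g. Car13 (chr3:14641727-14663002), a cytosolic carbonic anhydrase, read 0.913 and 0.929 CPM in the Epcam hi libraries, 41.04 and 37.98 in pB2, 73.3 and 77.5 in pB3 and 62.6 and 64.96 in 687g; it was the sole member to keep at least 20 CPM in every other library. Arhgef19 (chr4:141239499-141257564), a guanine nucleotide exchange factor, stood at 0.281 and 0.547 CPM against 11.5 to 25.03.

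The remaining off-only genes are Zcchc24 (chr14:25711642-25769039), a zinc finger gene at 0.281 and 0.164 CPM against 19.2 to 71.2, Klhl23 (chr2:69821944-69836651), a Kelch-like gene at 0.703 and 0.820 CPM against 11.8 to 53.7, Syce2 (chr8:84872111-84888221) and Magohb (chr6:131284388-131293244). Syce2 encodes a part of the synaptonemal complex, which joins chromosomes in meiosis, and was read at 38.2 and 34.5 CPM in pB2, 37.7 and 36.3 in pB3 and 19.5 and 39.7 in 687g against 0.703 and 0.875 in Epcam hi. Magohb, a core part of the exon junction complex, stood at 0.562 and 0.656 CPM against 16.8 to 27.7. Its near-identical paralogue Magoh was at 154 and 244 CPM in Epcam hi and 216 to 319.7 elsewhere, so how the counting split reads between the pair leaves the value of Magohb uncertain. Overlaps on the same strand were also annotated for Prrg1 (with Gm22843), Copz2 (with Mir152) and Magohb (with Gm44958). Over the 17 genes, 7 were higher in Epcam hi replicate 1, and the median log2 ratio of its replicates was 0.02 on log2(CPM + 0.5). All 25 members passed the filter on low counts, which the level on the high side makes certain for them.

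Both thresholds had genes close by. Just inside the on-only rule were 2610528J11Rik, at 10.5 CPM in its lower Epcam hi library, and Nipal4, at 0.806 in its highest other library. Just outside were Mgmt, the enzyme that repairs alkylated guanine, at 33.5 and 29.7 CPM in Epcam hi and up to 1.07 elsewhere, and Rimklb, a ligase of N-acetylaspartate and glutamate, at 12.4 and 9.02 and up to 0.265. On the off side Cplx2 was just inside at 10.6 CPM in its lowest other library, and Car13 and Tfap2b at 0.929 in their higher Epcam hi library. H1fx, a linker histone, missed with 9.998 CPM in 687g replicate 2, Wtip with 9.76 in pB2 replicate 1, Id1 with 1.05 in Epcam hi replicate 1, and Smarcd3, a chromatin remodelling subunit, with 1.09 in replicate 2. With the high threshold lowered to 5 CPM and the low one raised to 2 CPM together, 43 further genes fell near the on rule and 52 near the off rule.

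No member lay within 1 Mb of another. The nearest expressed gene on each side was read beside each member (at least 1 CPM in the other lines). All 16 such neighbours of the on-only genes and 33 of the 34 of the off-only genes were at 1 CPM or more in Epcam hi. The exception was Fendrr, the noncoding RNA beside Foxf1, at 0.0703 and 0.109 CPM in the Epcam hi libraries, 4.14 and 4.29 in pB2, 8.26 and 8.86 in pB3 and 7.36 and 14.3 in 687g. The gene on the other side of Foxf1, Mthfsd, was at 49.5 and 50.7 CPM in Epcam hi and 30.8 to 47.5 elsewhere. Further along, the forkhead gene Foxc2 was at 6.82 and 8.58 CPM against 0.222 to 23.7 and Foxl1 at 1.12 and 1.53 CPM against 0 to 4.23. Foxf1 and Fendrr were thus both near 0 in Epcam hi, with Mthfsd read on the Foxf1 side. No gene on the far side of Fendrr was looked up. Against the mean of the 3 lines, 1 neighbour of the on-only genes was over 2-fold higher and 1 over 2-fold lower. Wfs1 beside Ppp2r2c averaged 58.3 CPM in Epcam hi against 13.1, 9.15 and 20.8 in pB2, pB3 and 687g, and H2afy2 beside Col13a1 8.31 CPM in Epcam hi against 45.8, 7.17 and 21.9. Of the neighbours of the off-only genes 3 were over 2-fold higher (Gm6075, Ybx3 and Eps8) and 3 lower (Fendrr, Tceal8 and Itgb5). Tceal8 beside Bhlhb9 averaged 6.33 CPM in Epcam hi against 1.62, 186 and 278, and Itgb5 beside Heg1 46.3 CPM in Epcam hi against 34.4, 70.4 and 339.9.

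Promoters, taken as 250 bases before to 50 bases after the RefSeq start on GRCm38.p6, were found for 7 of the 8 on-only and 12 of the 17 off-only genes. Some RefSeq starts lay away from the gene starts given above. The only listed window of Cplx2, chr13:54302306-54302605, lies before that gene. Those of Bhlhb9 (chrX:135885601-135885900) and Arhgef19 (chr4:141244838-141245137) lie inside theirs, so these windows may miss the start in use. The AP-1 motif TGANTCA, which reads the same on both strands, was present in 3 of the 7 on-only promoters and 1 of the 12 off-only promoters, against 7.81% of all 32851 listed promoters and 5.49% of those of genes tested. AP-1 is the Fos and Jun factor that acts downstream of growth factor signals. The 3 on-only promoters are shown with the motif in capitals, 5′ to 3′ on the strand of the gene, as they show how far from the start it lies: it begins 12 bases before the start in Il1a (chr2:129309923-129310222, minus strand), 29 before in 2610528J11Rik (chr4:118527025-118527324, plus strand) and 34 after in Trim15 (chr17:36867161-36867460, minus strand). The letters are a match and not a site of binding. The other motifs were also searched on both strands. The GC box GGGCGG was in 3 of the 7 on-only and 7 of the 12 off-only promoters, against 61.3% of the promoters of genes tested. The E-box CACCTG, of the kind Snail factors bind, was in 3 on-only and 3 off-only promoters, against 18.2%. The TATA box TATAAA was in 2 on-only promoters and 1 off-only promoter, against 7.27% of those of genes tested. The TEAD motif GGAATG was likewise in 2 on-only promoters and 1 off-only promoter, against 12.5% over the genes tested. The Grainyhead-like motif AACCGG was in none of the on-only promoters and 1 off-only promoter, against 10.6%. The cyclic AMP element part TGACGT was in none of the on-only promoters and 2 off-only promoters, against 11.2%.
Il1a: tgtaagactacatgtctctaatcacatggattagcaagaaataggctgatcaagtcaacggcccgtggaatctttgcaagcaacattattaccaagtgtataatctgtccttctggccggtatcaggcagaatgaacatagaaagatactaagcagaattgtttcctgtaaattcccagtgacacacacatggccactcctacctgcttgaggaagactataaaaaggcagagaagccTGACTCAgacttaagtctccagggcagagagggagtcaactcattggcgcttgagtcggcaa
2610528J11Rik: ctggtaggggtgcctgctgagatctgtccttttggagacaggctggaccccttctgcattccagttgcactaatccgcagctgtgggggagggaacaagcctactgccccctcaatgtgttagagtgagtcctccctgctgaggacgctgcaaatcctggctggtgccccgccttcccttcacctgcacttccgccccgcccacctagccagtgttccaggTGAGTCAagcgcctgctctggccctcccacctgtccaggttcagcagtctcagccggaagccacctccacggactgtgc
Trim15: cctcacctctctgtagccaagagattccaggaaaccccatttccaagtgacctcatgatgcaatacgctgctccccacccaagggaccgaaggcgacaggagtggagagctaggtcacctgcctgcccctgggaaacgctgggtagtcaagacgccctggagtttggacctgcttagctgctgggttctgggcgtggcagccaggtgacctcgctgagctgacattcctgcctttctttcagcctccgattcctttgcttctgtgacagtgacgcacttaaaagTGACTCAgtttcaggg

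By base composition, with at least 50% G and C and an observed to expected ratio of CG of at least 0.6, 3 of the 7 on-only promoters (Ppp2r2c, Col13a1 and Nipal4) and 5 of the 12 off-only promoters (Dhrs3, Syce2, Zcchc24, Copz2 and Heg1) were rich in CG, against 64.1% of the promoters of genes tested and 33.5% of all listed. A CG-rich promoter of each kind is shown with each CG in capitals: Ppp2r2c (chr5:36868260-36868559, plus strand) holds 36 and Dhrs3 (chr4:144892577-144892876, plus strand) holds 21, where the Il1a promoter has 5. Methylation was not measured here.
Ppp2r2c: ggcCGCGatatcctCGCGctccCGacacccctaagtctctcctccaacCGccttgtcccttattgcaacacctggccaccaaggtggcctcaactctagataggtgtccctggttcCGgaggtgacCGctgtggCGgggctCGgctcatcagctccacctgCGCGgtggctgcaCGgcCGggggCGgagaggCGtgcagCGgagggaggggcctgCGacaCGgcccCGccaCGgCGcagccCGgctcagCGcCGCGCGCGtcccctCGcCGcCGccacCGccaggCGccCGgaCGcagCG
Dhrs3: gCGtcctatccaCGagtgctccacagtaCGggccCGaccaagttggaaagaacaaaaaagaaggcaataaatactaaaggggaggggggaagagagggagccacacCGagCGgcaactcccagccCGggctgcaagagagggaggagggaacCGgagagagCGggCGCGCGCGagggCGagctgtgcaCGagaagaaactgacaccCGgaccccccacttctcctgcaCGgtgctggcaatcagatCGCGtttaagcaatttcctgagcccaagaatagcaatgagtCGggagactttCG

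Beyond the on and off genes, Epcam hi was compared with each line by edgeR's quasi-likelihood test over 15890 genes at a Benjamini-Hochberg adjusted p under 0.05. Against pB2, 4103 genes were higher in Epcam hi (25.8%) and 4068 lower (25.6%), against pB3 2314 (14.6%) and 2352 (14.8%), and against 687g 2862 (18.0%) and 2928 (18.4%). Genes called in the same direction against each of the 3 lines are here called apart: 986 were higher (6.21%) and 799 lower (5.03%). The 3 comparisons share the 2 Epcam hi libraries. The counts moved with single libraries: the count of genes higher than in each line was 656 without pB3 replicate 1 and 1810 without Epcam hi replicate 2, and against pB3 the counts were 1293 higher and 1562 lower without pB3 replicate 1, and near those counts without pB3 replicate 2. Among them, 346 genes were at least 4-fold higher and 289 at least 4-fold lower than in the nearest line. Scaling by total counts shifted the median log2 fold change over the tested genes by -0.11 against pB2 and 0.12 against 687g.

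Leaving the on-only genes aside, the 8 genes furthest above the nearest other line were Ly6g, S100a14, Rimklb, Ly6c1, B4galnt3, Lama3, Cers3 and Mgmt. S100a14, a small calcium-binding protein of epithelia, stood at 1801 and 1577 CPM in the Epcam hi libraries, 4.95 and 3.71 in pB2, 24.2 and 29.6 in pB3 and 4.85 and 2.28 in 687g. Ly6c1, a lipid-anchored surface protein, stood at 631 and 396 CPM against 0.212 to 11.1, and its relative Ly6g at 12.6 and 7.49 CPM against 0 to 0.134. They belong to a cluster of related genes on chromosome 15, where reads of the most similar copies can be split between them. In that cluster Ly6a was at 1188 and 983 CPM against 0.518 to 58.7 and Ly6e at 931 and 875 CPM against 52.4 to 373, while Ly6d went another way, at 0.211 and 0.109 CPM in Epcam hi and 12.3 and 11.8 in pB2. B4galnt3, a glycosyltransferase, stood at 152 and 125 CPM against 0.268 to 4.59, and Cers3, the ceramide synthase of the epidermal barrier, at 64.3 and 30.7 CPM against 0.390 to 1.55. For Mgmt, Rimklb and Lama3 the log2 fold changes against the nearest line were 4.88, 5.60 and 4.95.

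The 8 genes furthest below the nearest other line, the off-only genes left aside, were Fgfr1, Cp, Podxl, Zfp704, Smarcd3, Wtip, Id1 and H1fx. Fgfr1, a fibroblast growth factor receptor, read 3.79 and 3.66 CPM in the Epcam hi libraries, 166 and 214 in pB2, 204 and 201 in pB3 and 267 and 195 in 687g, a log2 fold change of -5.79 ± 0.24 against the mean of the 3 lines (the largest of the 3 adjusted p 3.6e-09, lower in 2 of 2 libraries). Cp, the copper carrier ceruloplasmin, stood at 4.29 and 4.15 CPM against 101 to 279. Podxl, a sialomucin that keeps membranes apart, stood at 0.492 and 1.59 CPM against 27.6 to 48.6, Zfp704 at 0.632 and 1.37 CPM against 23.1 to 53.7, and Smarcd3 at 0.351 and 1.09 CPM against 29.1 to 88.3. Wtip, a LIM protein of cell junctions, stood at 0.351 and 0.492 CPM against 9.76 to 19.5. For Fgfr1 the 3 contrasts gave nearly the same size, -5.67, -5.76 and -5.95.

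In the epithelial adhesion list 15 of 32 tested genes were higher in Epcam hi than in each line and none lower. The median log2 fold changes of the list were 1.10 against pB2, 2.27 against pB3 and 5.82 against 687g, where those over all genes tested were 0.06, 0.04 and 0.03. They include the tight junction genes Cldn3, Cldn4, Cldn7, Ocln, Marveld2, F11r and Cgn, the polarity genes Crb3 and Patj, the desmosome genes Pkp2 and Perp and the protease inhibitor Spint2. Cldn4 read 1086 and 791 CPM in the Epcam hi libraries, 20.3 and 13.1 in pB2, 122 and 126 in pB3 and 2.29 and 1.07 in 687g. Crb3, a polarity protein of the apical membrane, stood at 48.2 and 62.4 CPM against 0 to 13.98. In the list of epithelial regulators 4 of 23 were higher and none lower: Elf3, an epithelial Ets factor, at 20.9 and 17.3 CPM against 0 to 8.90, Rab25, a vesicle GTPase, at 175 and 174 CPM against 0.268 to 69.1, Cblc and Klf5. Against pB2 alone 6 of its genes were higher and 9 lower, with a median log2 fold change of -0.30, against 3.16 for pB3 and 6.23 for 687g.

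Of 21 EMT transcription factors, 5 were lower than in each line and 1 higher. Against pB2 alone 10 of them were higher and 7 lower. Among all genes tested, 6.21% were higher and 5.03% lower than in each line. Against pB2 alone those shares were 25.8% and 25.6%. The same shares stand beside the counts of the other lists. Snai1, which encodes Snail, read 5.34 and 3.72 CPM in the Epcam hi libraries, 14.6 and 17.9 in pB2, 8.39 and 10.7 in pB3 and 25.8 and 14.7 in 687g, and its call was lost without Epcam hi replicate 2 or pB3 replicate 2. Twist2 read 0 and 0.219 CPM in the Epcam hi libraries, 1.41 and 1.06 in pB2, 17.9 and 18.7 in pB3 and 29.1 and 27.98 in 687g. The homeobox factor Msx1 was also lower, at 0.211 and 0.383 CPM against 7.65 to 63.8, as was Tcf4 at 19.4 and 24.3 CPM against 37.3 to 231. Snai3, a relative of Snail, was the higher gene, at 3.09 and 2.95 CPM against 0.279 to 0.740. Zeb1 was at 0.351 and 1.04 CPM in Epcam hi, under 27.1 and 27.9 in pB3 and 49.5 and 41.4 in 687g and over 0.148 and 0.0530 in pB2, so it did not set the line apart. Of 16 mesenchymal genes 3 were lower, Pdgfra, Pdgfrb and Ncam1, and none higher, while against pB2 alone 8 of them were higher and 6 lower; Pdgfra read 2.46 and 2.02 CPM in the Epcam hi libraries, 43.6 and 59.6 in pB2, 13.4 and 15.5 in pB3 and 6.08 and 5.97 in 687g and Ncam1 0.492 and 0.929 CPM against 5.47 to 88.4. Among 15 fibrillar matrix genes Bgn, at 0.422 and 0.273 CPM against 2.82 to 140.0, and Col6a1, at 0.141 and 0.0547 CPM against 0.666 to 28.9, were lower.

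**Figure D2:**
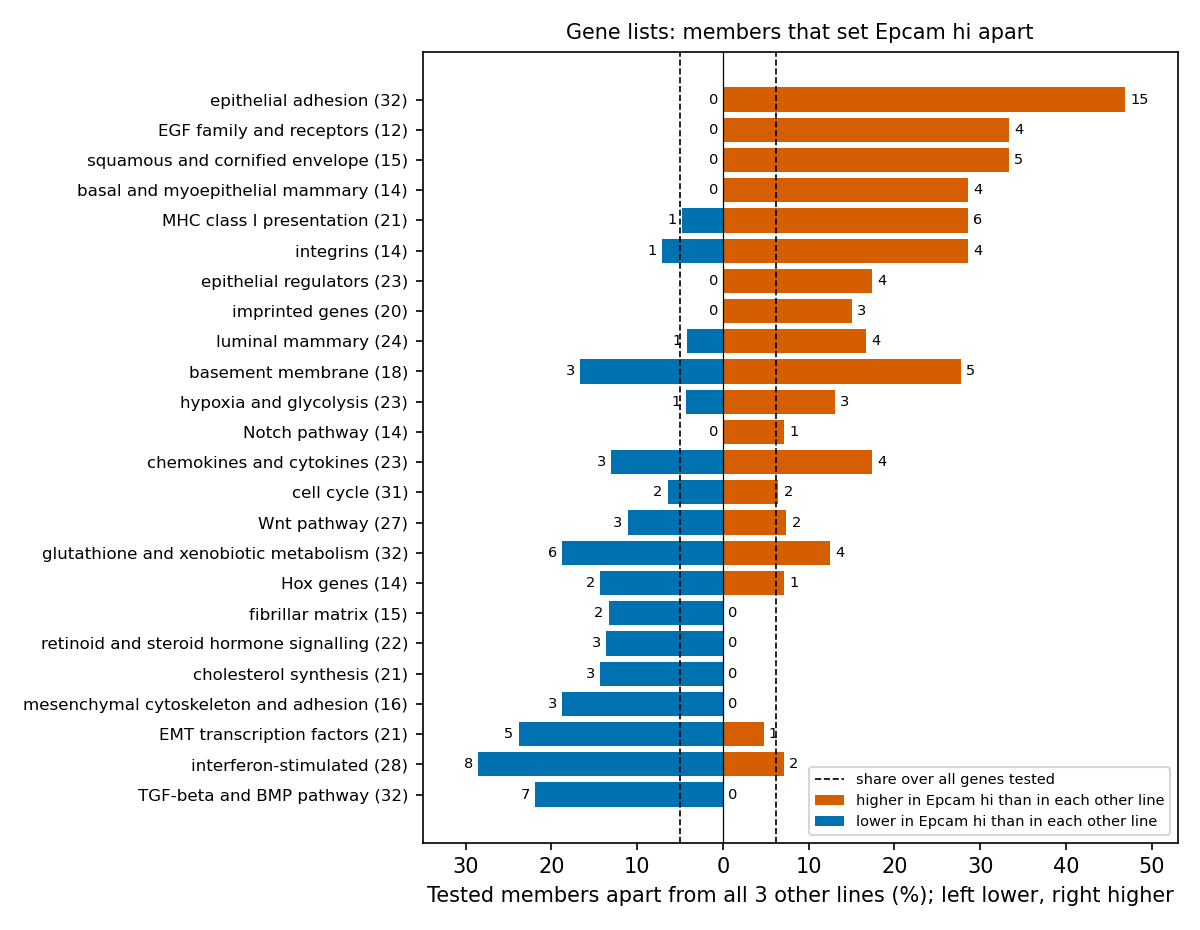
Share of the tested genes of each list (number in brackets) that differed from each of the 3 other lines, in percent; orange bars to the right are higher in Epcam hi, blue bars to the left lower, numbers at the bars are genes, and dashed lines mark the 6.21% and 5.03% over all genes tested. Epithelial adhesion reaches 15 higher of 32 with none lower, and the TGF-beta and BMP list 7 lower of 32 with none higher.

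In the basement membrane list, 5 of 18 genes were higher and 3 lower. Lama3 and Lamb3, chains of laminin-332, were among the higher ones. Lama3, the alpha chain, read 497 and 592 CPM in the Epcam hi libraries, 0.592 and 0.636 in pB2, 18.9 and 16.4 in pB3 and 1.84 and 0.671 in 687g. Lamb3, the beta chain, read 449 and 489 CPM in the Epcam hi libraries, 92.7 and 114 in pB2, 24.2 and 21.9 in pB3 and 59.8 and 54.5 in 687g. Against the mean of the 3 lines their log2 fold changes were 7.81 ± 0.20 and 3.19 ± 0.13 (the largest adjusted p of the 3 contrasts 1.5e-08 and 2.8e-07). In pB2 and 687g, Lama3 was near 1 CPM where Lamb3 was read at 54.5 CPM or more. Col7a1, the anchoring fibril collagen that binds laminin-332, stood at 442 and 537 CPM in the Epcam hi libraries, 1.33 and 0.795 in pB2, 81.4 and 83.2 in pB3 and 191 and 283 in 687g, and Agrn, agrin, at 389 and 409 CPM against 70.7 to 129.5. The lower genes were Lamc1, a laminin chain of many basement membranes, at 68.5 and 74.02 CPM against 108 to 218, Nid1, which bridges laminin and collagen IV, at 0.141 and 0.109 CPM against 2.88 to 44.05, and Col4a5 at 25.7 and 9.40 CPM against 41.4 to 117.

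Among 14 integrin genes, 4 were higher and 1 lower. Itgb4, of the laminin-332 receptor in hemidesmosomes, read 229 and 287 CPM in the Epcam hi libraries, 83.8 and 115 in pB2, 106 and 102 in pB3 and 41.5 and 21.1 in 687g. Itgb6, an epithelial chain of the receptor that activates latent TGF-beta, stood at 20.8 and 19.5 CPM against 0.0671 to 4.45, Itga2, a collagen receptor chain, at 112 and 151 CPM against 0.265 to 52.9, and Itgb1 at 3095 and 2828 CPM against 371 to 1894. Itgb3, a chain of the vitronectin receptor, was lower at 0.984 and 1.15 CPM against 11.8 to 33.4.

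The mammary lineage lists gave a mixed picture. Of 24 luminal genes 4 were higher, Krt7, Krt18, Ly6a and Btn1a1, and Xdh was lower. Against pB2 alone 7 of the luminal genes were higher and 13 lower, against pB3 5 and 5, and against 687g 8 and 6. The median log2 fold changes of the list were -1.62, 0.03 and 0.93. Krt7 read 3666 and 2777 CPM in the Epcam hi libraries, 198 and 166 in pB2, 734 and 787 in pB3 and 1259.6 and 1015 in 687g. The call of Krt18 was lost in 8 of 14 alternative settings. Btn1a1, butyrophilin of milk fat globules, stood at 18.9 and 12.1 CPM against 0.335 to 1.28, and Xdh, which works with it in milk fat secretion, at 0.913 and 0.219 CPM against 6.24 to 37.1. Of 14 basal genes 4 were higher, Cd44, Procr, Jag2 and Egfr, none of them a keratin; Procr, the protein C receptor, read 438 and 289.5 CPM in the Epcam hi libraries, 0.296 and 0.212 in pB2, 46.5 and 46.9 in pB3 and 73.7 and 75.7 in 687g, and the call of Cd44 was lost in 5 of 14 settings. Without pB2 replicate 2, or either pB3 library, 2 of these 4 calls were left. Of 15 squamous genes, 5 were higher and none lower. They include Serpinb2, an inhibitor of plasminogen activators, at 4262 and 5133 CPM against 3.18 to 1202, Klk10, a kallikrein protease, at 17.2 and 36.8 CPM against 0 to 1.81, Lypd3 at 28.1 and 35.8 CPM against 0.0530 to 7.05, and Sfn, the epithelial 14-3-3 protein, at 115 and 98.02 CPM against 0.939 to 16.4. Klk8 stood at 456 and 643 CPM against 0.444 to 299, and its call was lost without either pB3 library or without Epcam hi replicate 2.

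Of 12 genes of the EGF family and its receptors, 4 were higher and none lower. The ligand Tgfa stood at 95.6 and 114 CPM against 22.9 to 55.8 and the ligand Nrg1 at 25.4 and 31.1 CPM against 2.55 to 12.3. The receptor Egfr read 103 and 69.9 CPM in the Epcam hi libraries, 10.6 and 14.8 in pB2, 45.99 and 44.7 in pB3 and 61.2 and 47.4 in 687g, and Erbb3, a receptor for Nrg1, 51.5 and 50.1 CPM in the Epcam hi libraries, 17.7 and 20.1 in pB2, 4.70 and 4.59 in pB3 and 0.335 and 0.201 in 687g.

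In the TGF-beta and BMP list 7 of 32 genes were lower than in each line and none higher, with list medians of -0.09 against pB2, -0.68 against pB3 and -1.96 against 687g. Against pB2 alone 14 of its genes were higher and 13 lower, against pB3 3 of its genes were higher and 16 lower, and against 687g 3 of its genes were higher and 21 lower. By role, the ligand Bmp2 was lower at 1.12 and 1.53 CPM against 10.1 to 409.7 and the ligand Tgfb3 at 7.24 and 6.40 CPM against 35.1 to 54.6. The receptor Bmpr1a stood at 86.5 and 96.05 CPM against 142 to 173, a smaller difference of -0.81 ± 0.14 on the log2 scale against the mean of the lines. Smad6, an inhibitor that BMP signalling induces, read 0.0703 and 0 CPM in the Epcam hi libraries, 6.73 and 8.53 in pB2, 1.28 and 1.62 in pB3 and 31.9 and 17.9 in 687g. The target gene Id1, an inhibitor of basic helix-loop-helix factors, read 1.05 and 0.875 CPM in the Epcam hi libraries, 76.8 and 70.9 in pB2, 28 and 26.3 in pB3 and 225 and 289 in 687g, with log2 fold changes of -6.26, -4.82 and -8.06 (SE 0.26, 0.26 and 0.27) against pB2, pB3 and 687g (the largest adjusted p 1.5e-08, lower in 2 of 2 libraries). Id2 stood at 12.9 and 8.91 CPM against 23.4 to 303, where pB3 was the nearest at 23.4 and 24. Ltbp2, a latent TGF-beta binding protein, stood at 15.2 and 11.04 CPM against 32.6 to 127.

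**Figure D3:**
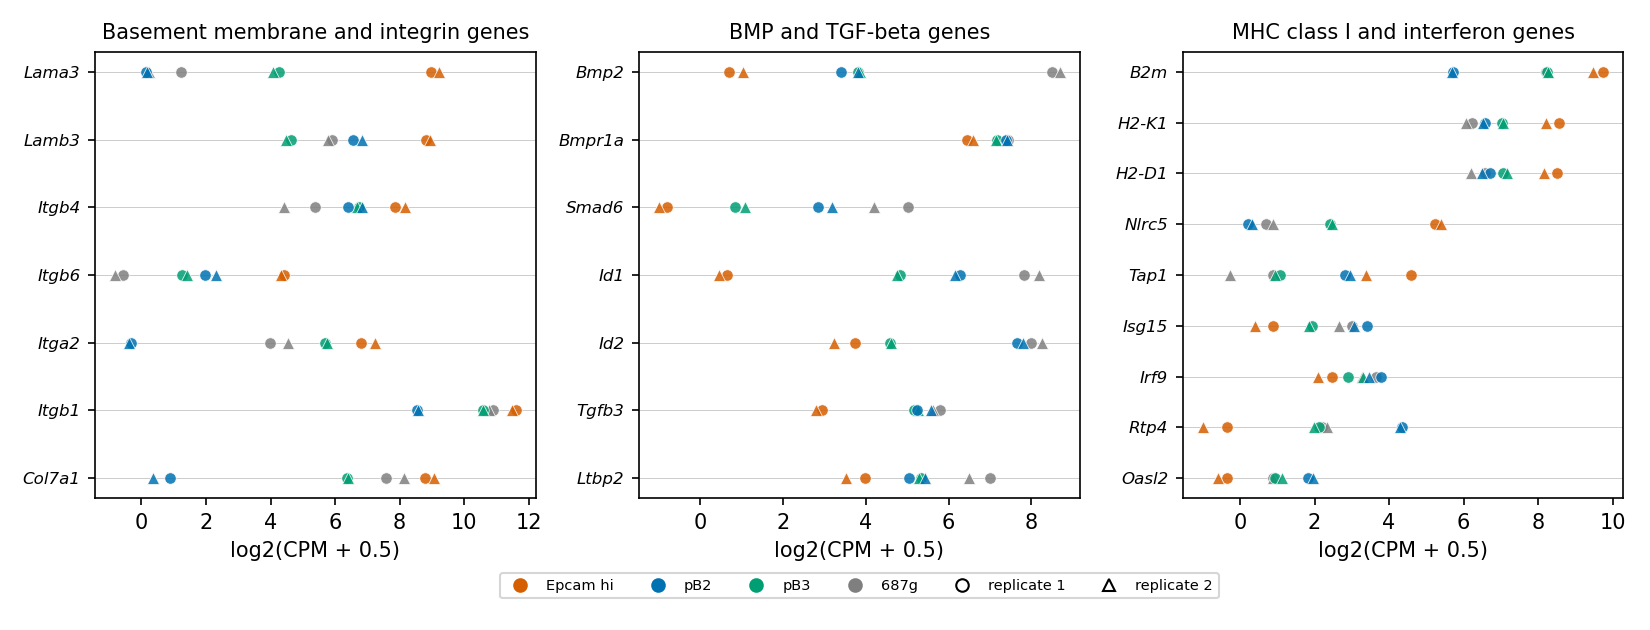
Levels in all 8 libraries as log2(CPM + 0.5) for basement membrane and integrin genes (left), genes of the BMP and TGF-beta list (middle) and MHC class I and interferon genes (right); colours are lines, circles replicate 1 and triangles replicate 2. Epcam hi has the highest 2 points for every gene on the left and the lowest 2 for every gene in the middle. On the right it is highest for B2m, H2-K1, H2-D1, Nlrc5 and Tap1 and lowest for Isg15, Irf9, Rtp4 and Oasl2. All genes shown were picked from those called apart, so these positions follow from that choice. Genes of the same lists called the other way, among them Lamc1, Nid1, Col4a5, Itgb3, Psmb10, Usp18 and Isg20, are left out.

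Antigen presentation and interferon genes parted. Of 21 MHC class I genes 6 were higher and 1 lower. Nlrc5, the transactivator of class I genes, read 37.2 and 41.7 CPM in the Epcam hi libraries, 0.666 and 0.742 in pB2, 4.83 and 5.05 in pB3 and 1.12 and 1.34 in 687g. B2m, the light chain, read 863 and 711 CPM in the Epcam hi libraries, 51.6 and 51.6 in pB2, 302 and 308 in pB3 and 295 and 306 in 687g, and the heavy chain H2-K1 stood at 378 and 294 CPM against 66.2 to 134 and H2-D1 at 365 and 285 CPM against 73.3 to 143. These 2 are closely related genes, and reads from their most similar stretches may be split between them. H2-Q4 was also higher. Tap1, the peptide pump, stood at 23.5 and 10.004 CPM against 0.336 to 7.20, and its call was lost without Epcam hi replicate 1 or either pB2 library. Psmb10, a part of the immunoproteasome, was lower at 10.3 and 12.2 CPM against 14.9 to 23.4, a call lost without Epcam hi replicate 1, pB2 replicate 1, either pB3 library or 687g replicate 2. Of 28 interferon-stimulated genes 8 were lower and 2 higher. Rtp4 read 0.281 and 0 CPM in the Epcam hi libraries, 19.97 and 19.2 in pB2, 3.83 and 3.49 in pB3 and 4.07 and 4.56 in 687g, Isg15 stood at 1.33 and 0.820 CPM against 3.11 to 10.1, Irf9, part of the factor that carries the interferon signal, at 4.99 and 3.77 CPM against 6.92 to 13.2, and Oasl1 at 0.0703 and 0.164 CPM against 1.41 to 4.73. Usp18, which removes ISG15 from proteins and damps interferon signalling, was higher at 37.4 and 28.5 CPM against 0.848 to 2.79, as was Isg20 at 73.1 and 73.5 CPM against 5.92 to 44.9.

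Of 23 chemokines and cytokines 4 were higher, Il1a among them by the rule, and 3 lower. Il23a, a chain of interleukin 23, read 193 and 166 CPM in the Epcam hi libraries, 0.148 and 0.318 in pB2, 13.1 and 13.8 in pB3 and 1.45 and 1.54 in 687g. Cxcl16, a membrane-bound chemokine, stood at 289 and 237 CPM against 1.62 to 27.9, and Lif at 173 and 169.7 CPM against 26.1 to 46.2. Cx3cl1, fractalkine, was lower at 2.60 and 2.79 CPM against 35.4 to 123, Cxcl12 at 6.04 and 6.01 CPM against 8.63 to 237 and Csf1, the macrophage growth factor, at 15.6 and 9.89 CPM against 20.9 to 108.

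In the Wnt list 2 of 27 genes were higher, the ligands Wnt7a at 172 and 174 CPM against 0.159 to 18.96 and Wnt7b at 287 and 258 CPM against 3.96 to 164, and 3 were lower, the receptors Fzd2 at 1.33 and 1.15 CPM against 15.1 to 21.4 and Fzd8 at 0.773 and 1.48 CPM against 3.62 to 6.36 and the secreted antagonist Sfrp1 at 3.09 and 1.20 CPM against 19.997 to 196. Without either pB3 library 1 of the Wnt list was higher. Against pB2 alone 7 of the Wnt genes were higher and 13 lower, against pB3 6 and 6, and against 687g 4 and 13. Over all genes tested, 6.21% were higher and 5.03% lower than in each line. Of 14 Notch genes only the ligand Jag2 was apart, at 27.5 and 36.7 CPM against 0.518 to 15.9. Of 14 Hox genes Hoxa3 was lower, at 0 and 0.109 CPM against 1.48 to 2.54, and so was Hoxa5, at 0 and 0.0547 CPM against 0.167 to 6.41; the call of Hoxa5 was lost without Epcam hi replicate 1 or 687g replicate 2 and with DESeq2. Of 20 imprinted genes 3 were higher, the paternally expressed Mest at 6.11 and 12.7 CPM against 0.134 to 3.07, Slc22a18 at 6.53 and 5.58 CPM against 0 to 0.669 and Nespas, an antisense transcript of the Gnas locus, at 3.23 and 5.14 CPM against 0 to 0.0558. Without Epcam hi replicate 2, 5 imprinted genes were higher and 1 lower. None of the 2 tested germline genes was apart.

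Among metabolic lists, the glutathione and hypoxia lists held genes apart in both directions, and the retinoid and cholesterol lists only lower ones. The cell cycle list held 2 higher and 2 lower genes of 31, where 6.21% and 5.03% of all genes tested were higher and lower. Of 32 glutathione and xenobiotic genes 4 were higher and 6 lower. Nqo1, a quinone reductase, read 0.562 and 0.328 CPM in the Epcam hi libraries, 278 and 239 in pB2, 6.04 and 7.12 in pB3 and 1.56 and 3.02 in 687g, Gstm1 stood at 0.281 and 0 CPM against 1.27 to 11.9, and Mgst1 at 47 and 46.6 CPM against 178 to 670.0; the 6 include Aldh3a1, whose place is fixed by the off-only rule. Gclc, the rate-limiting enzyme of glutathione synthesis, was higher at 107 and 87.6 CPM against 33.9 to 65.8, as were Gsto1, Akr1b8 and Ces2g, and 2 of these 4 calls were left without Epcam hi replicate 1 or any of the pB2 and pB3 libraries. Of 22 retinoid and steroid genes 3 were lower: Dhrs3, whose place is fixed by the off-only rule, Pparg, the lipid receptor, at 0.0703 and 0 CPM against 0.537 to 24.1, and Hsd17b11 at 0 and 0.109 CPM against 1.17 to 8.15. Car9, the hypoxia-induced carbonic anhydrase, read 119 and 156 CPM in the Epcam hi libraries, 54.3 and 54.6 in pB2, 10.1 and 10.7 in pB3 and 1.67 and 1.61 in 687g and was 1 of 3 hypoxia genes of 23 that were higher, with Slc2a1 and Ndrg1, while Egln3 was lower at 20.5 and 23.5 CPM against 67.8 to 128. In the cell cycle list of 31, Cdkn1a, the p21 inhibitor, stood at 135 and 170.2 CPM against 15.1 to 69.9 and Myc at 304 and 247 CPM against 38.8 to 179, and Tyms and Cdkn2c were lower, a count that was 4 without Epcam hi replicate 2 and 1 without replicate 1, pB2 replicate 1 or either pB3 library; the call of Myc was lost without Epcam hi replicate 1 or 687g replicate 2. Of 21 cholesterol genes Insig1, Pmvk and Nsdhl were lower, Insig1 at 161 and 142 CPM against 289 to 528; the calls of Pmvk and Nsdhl were lost in 7 and 6 of 14 settings, and 1 lower gene was left without pB2 replicate 1, either pB3 library or 687g replicate 1.

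The 2 Epcam hi libraries differed from each other in processed pseudogenes, mitochondrial genes and a set of protein-coding genes. Of 9948 genes with a mean of at least 5 CPM, 333 were over 2-fold apart, 220 of them higher in replicate 1 and 113 in replicate 2. Of the 220, 120 were processed pseudogenes, which are copies of messenger RNAs pasted into the genome, and 95 were protein coding. Processed pseudogenes took 0.881% (exact 95% interval 0.876 to 0.886) of the counts in replicate 1 and 0.342% (exact 95% interval 0.340 to 0.345) in replicate 2, against 0.353% to 0.426% in the other 6 libraries. Replicate 1 lay above that range and replicate 2 just below it, and 167 of 180 processed pseudogenes were higher in it. The intervals cover counting error only. Gm12912 stood at 89.2 and 6.94 CPM and Gm11878 at 42.4 and 1.48. As near copies of other genes, pseudogenes share reads with their parents, so their counts depend on how reads with several matches were treated.

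Mitochondrial genes took 0.375% (exact 95% interval 0.372 to 0.378) of counts in Epcam hi replicate 1 and 1.09% (exact 95% interval 1.08 to 1.09) in replicate 2, against 0.456% to 1.90% in the other 6 libraries, all of them above replicate 1. Of the 113 genes higher in replicate 2, 7 were mitochondrial, such as mt-Cytb at 922 and 3292 CPM, and 92 were protein coding. Neat1, a nuclear noncoding RNA, stood at 38.8 and 151 CPM, the kallikrein Klk6 at 6.04 and 21.6 and the interferon-inducible Ifi202b at 15.9 and 52.2. Among protein-coding genes alone, 1.96% were over 2-fold apart, near the 1.42% of 687g, with 0.0414% in pB2. The part of these shares in the comparisons with the other lines was not tested.

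Among the protein-coding genes higher in replicate 1, some encode matrix proteases and enzymes of amino acid metabolism; except for Mmp13 those named were chosen after their values were seen. Mmp13, a collagenase, was at 442 and 50.7 CPM in Epcam hi, 48.1 and 56.5 in pB3 and 8.20 and 36.8 in 687g, and its call as apart was lost in 6 of 14 settings. Mmp10, a stromelysin, was at 662 and 239.9 CPM. Asns, asparagine synthetase, was at 279 and 112 CPM, Pycr1, of proline synthesis, at 27.1 and 6.56, Gpt2, a transaminase, at 31.9 and 8.25, Pck2 at 32.1 and 10.9 and Chac1, which degrades glutathione, at 13.2 and 2.84. Sparc, a matrix protein, stood at 192 and 72.7 CPM and Cd68 at 35.5 and 13.4. Il1a, Col13a1 and Trim15 had the same direction without reaching 2-fold.

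**Figure D4:**
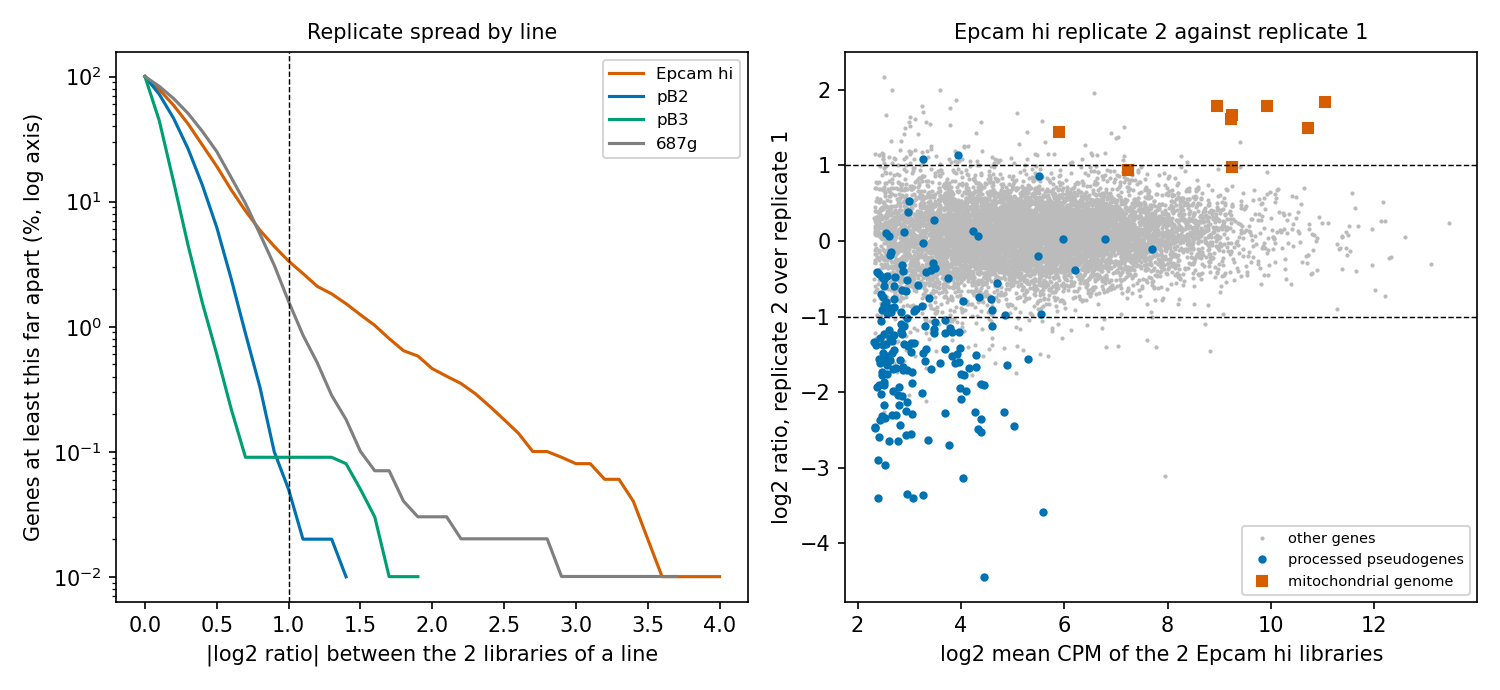
Left, the share of genes (percent, log axis; mean of at least 5 CPM) whose 2 libraries are at least as far apart as the log2 ratio on the horizontal axis, 1 curve per line with 2-fold dashed. Right, the log2 ratio of Epcam hi replicate 2 over replicate 1 on CPM + 0.5 against the log2 mean CPM, with processed pseudogenes in blue and mitochondrial genes in orange; at 2-fold the Epcam hi curve is the highest at 3.35%, and most blue points lie below 0 while all orange points lie above.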

How the data were processed

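Messenger RNA libraries of 8 samples, 2 per line, were analysed. Per the labels' protocols, RNA came from an RNeasy kit, and the library kit was KAPA mRNA HyperPrep. Per the submitters' processing notes and the series' design text, the authors used STAR 2.6.1a to map single-end reads to GRCm38 (mm10), with an Ensembl annotation, and counted with featureCounts in reverse-stranded mode; they also named DESeq2. The featureCounts version and the handling of multi-mapping reads are not given in the sources used here. The deposited files hold whole-number counts per gene for 53379 genes.

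Symbols and coordinates came from the GENCODE M21 annotation (53274 of 53379 IDs matched) and promoters from RefSeq on GRCm38.p6 (of several listed starts, the one nearest the GENCODE start). Tests used edgeR 4.0.16 under R 4.3.3 (filterByExpr, TMM, quasi-likelihood F tests, 1 fit of all 8 libraries, two-sided, Benjamini-Hochberg over 15890 genes). The fold change against the mean of the 3 lines has an error that holds the spread between libraries, not between lines. CPM uses TMM-scaled totals. Replicate ratios use CPM + 0.5. Intervals of count ratios are exact 95% Poisson intervals, and those of shares are exact Clopper-Pearson intervals; both cover counting error only. The fit was checked on simulated data. Alternatives were DESeq2 1.42.0 (size factors and Wald test), limma-voom 3.58.1, no filter, total-count scaling, other thresholds, a replicate block and leaving out each library.

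Named were all members, the 8 genes furthest from the nearest line in each direction with at least 10 CPM, up to 3 genes per list apart from all 3 lines, the 8 with the largest replicate ratio each way, and a marker panel; list members and paralogues named beyond that were chosen after their values were seen. The members and the 30 gene lists (716 symbols, 517 tested) were chosen with earlier results of these data known. The reporter's fluorescent protein was not analysed here, and a few list genes are not reported here.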

Additional observations from a re-analysis of the deposited data

How the results depend on the processing

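Other scaling, testing and filtering choices kept every count of genes called in the fits within 1.5 times its value. Leaving out single libraries gave 656 to 1810 genes apart from all 3 lines on the higher side and 598 to 1056 on the lower, 1293 to 3214 higher and 1562 to 2889 lower against pB3, 8 to 14 on-only genes and 17 to 24 off-only genes. Where a line kept 1 library, that library was assumed to vary like those of the other lines. Leaving out a library removes a condition of the CPM rule and can only add members, so the lower ends of 8 and 17 were fixed in advance. The members depended on the thresholds of the CPM rule. With a high threshold of 5 CPM there were 25 on-only and 39 off-only genes, with 20 CPM 4 and 1 (Car13), with a low threshold of 0.5 CPM 4 and 6, and with 2 CPM 25 and 32. CPM from total counts added Mgmt on the on side and Wtip on the off side, a setting chosen after seeing the data. The share of genes apart between the Epcam hi libraries was 9.60% at a minimum mean of 1 CPM (687g 2.39%), 1.32% at 20 CPM (687g 1.25%), 13.3% at 1.5-fold (687g 16.98%, the higher of the pair) and 0.462% at 4-fold (687g 0.0302%). Without Epcam hi replicate 1 (first number; the other is the highest value with a library left out), the log2 fold change against the mean of the 3 lines turned negative for the pseudogenes Gm11878 (-1.02 to 3.73), Gm12912 (-0.68 to 2.92), Gm9521 (-0.49 to 2.77), Gm2830 (-0.94 to 1.84), Gm11307 (-0.45 to 2.32), Gm6170 (-0.68 to 1.86) and Gm6023 (-0.57 to 1.94). Without Epcam hi replicate 2 it did so for Neat1 (-0.86 to 1.19). In each case the replicate left out was the one with the higher level. The replicate differences of the lines correlated at -0.17 to 0.21 with each other. In another comparison, over 8992, 9313 and 9199 genes, those of Epcam hi correlated at 0.32 with pB2, -0.25 with pB3 and 0.19 with 687g. The sign thus changed with the line, and whether the replicate numbers pair the samples was not tested further. A fit with the replicate number as a block gave 944 genes apart on the higher side and 794 on the lower. At this depth a gene under about 0.2 CPM in a library rests on 3 counts or fewer.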
